A study of Mus musculus with 6 samples.

Results

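The mitochondrial carrier family includes the proteins named Slc25a with a number. Its genes were read here as those whose platform symbol is Slc25a followed by a number. Relatives under other symbols, such as the uncoupling proteins, were therefore not counted as members. For each gene 1 probe set was used, the one of highest mean over the 6 arrays. This gave 44 of the 18193 genes that had probe sets with 1 symbol. Of these, 38 lay among the 13453 genes that passed a filter on low values (a mean level of at least 4.88, the 40th percentile of all probe sets), and 6 lay below it. The data are Affymetrix measurements of total RNA from the epididymal fat pad, a visceral white depot, of male C57BL/6 mice aged 16 weeks on chow with free access to food. The control group (FTO flox/flox) carried floxed alleles of Fto, an RNA demethylase gene. The AFO group (Adiponectin-cre FTO flox/flox) carried the same floxed alleles and a Cre driven by adiponectin sequence, a driver known for activity in fat cells. Each genotype had 3 arrays, each made from an independent RNA pool, and the number of mice in a pool is not given in the sources used here. Levels and differences below are on the log2 scale of the deposited RMA values, and every difference is AFO minus control.

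Carriers of this family sit mostly in the inner mitochondrial membrane, where each exchanges or imports a small set of solutes that the membrane would otherwise hold back. They bring in phosphate and ADP for ATP synthesis and let ATP out, move citrate and malate between matrix and cytosol, admit acylcarnitines for oxidation, and supply amino acids, cofactors and iron. In white fat the citrate carrier is known for its place in fatty acid synthesis, because citrate leaves the matrix to become acetyl-CoA in the cytosol, and the dicarboxylate carrier for its high level in fat cells. Transcripts, not transport, were measured here.

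The array medians ran from 5.35 to 5.43. Over all genes pool 2 of each genotype lay far from the other 4 arrays, on a first principal component holding 67.6% of the variance. The defining fat cell gene Adipoq was high on every array, at 13.43, 13.30 and 13.36 in control pools 1, 2 and 3 and 13.42, 13.14 and 13.22 in AFO pools 1, 2 and 3. Skeletal muscle markers (11 of 11 measured, Myh2 below the filter) had a summed signal, as log2, of 9.75, 13.05 and 8.58 in control pools 1, 2 and 3 and 13.16, 15.36 and 9.08 in AFO pools 1, 2 and 3. Epithelial markers (7 of 7, Cdh1 below the filter) summed to 9.28, 9.72 and 8.90 in control pools 1, 2 and 3 and 10.59, 8.47 and 10.37 in AFO pools 1, 2 and 3. Muscle signal was thus highest in AFO pool 2, and epithelial signal in AFO pools 1 and 3. With limma 0 of the 79 tested marker genes passed over 6 arrays, as with the block. Without both pool 2 arrays 3 passed, all epithelial and higher in AFO fat, where 0.676% of all genes tested passed. Fto itself read 6.11, 6.20 and 5.59 in control and 6.13, 5.45 and 5.95 in AFO fat, overlapping, a difference of -0.12 (SE 0.25) that did not pass the test (limma adjusted p = 0.999999). The values do not check the genotype, since the position of its probe set relative to the deleted part is not given in the sources used here. In tissue RNA, fewer cells of a type and less RNA per cell cannot be told apart.

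Probe sets of the carriers spanned nearly the whole scale of the array. Of the 44 members 8 lay in the top 5% of all probe sets by mean level and 28 in the top 25%. Each gene was read by its brightest probe set, but the percentiles count every probe set, so these counts lean high by choice. The same shares over all genes were not computed, so the counts do not set the carriers apart. By substrate, the brightest probe sets were those of ADP and ATP (Slc25a5, 11.72; Slc25a4, 11.25), phosphate (Slc25a3, 11.22), glutathione (Slc25a39, 11.19), NAD (Slc25a51, 10.86) and carnitine (Slc25a20, 10.01). Next came Slc25a46, an outer membrane protein of mitochondrial shape (9.63), pyrimidine nucleotides (Slc25a36, 9.47), the kidney-type carrier Slc25a30 (8.94) and citrate (Slc25a1, 8.94). Probe sets differ in how strongly they bind, so this is an order of signals and not of transcript amounts. A place in it can depend on the probe set. Other probe sets of Slc25a39 had means of 9.80, 8.75, 7.40 and 6.09, and those of Slc25a51 8.29 and 7.78. Within the order the means of Slc25a4, Slc25a3 and Slc25a39 lay closer together than the range of Slc25a4 over the arrays (0.49).

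**Figure D1:**
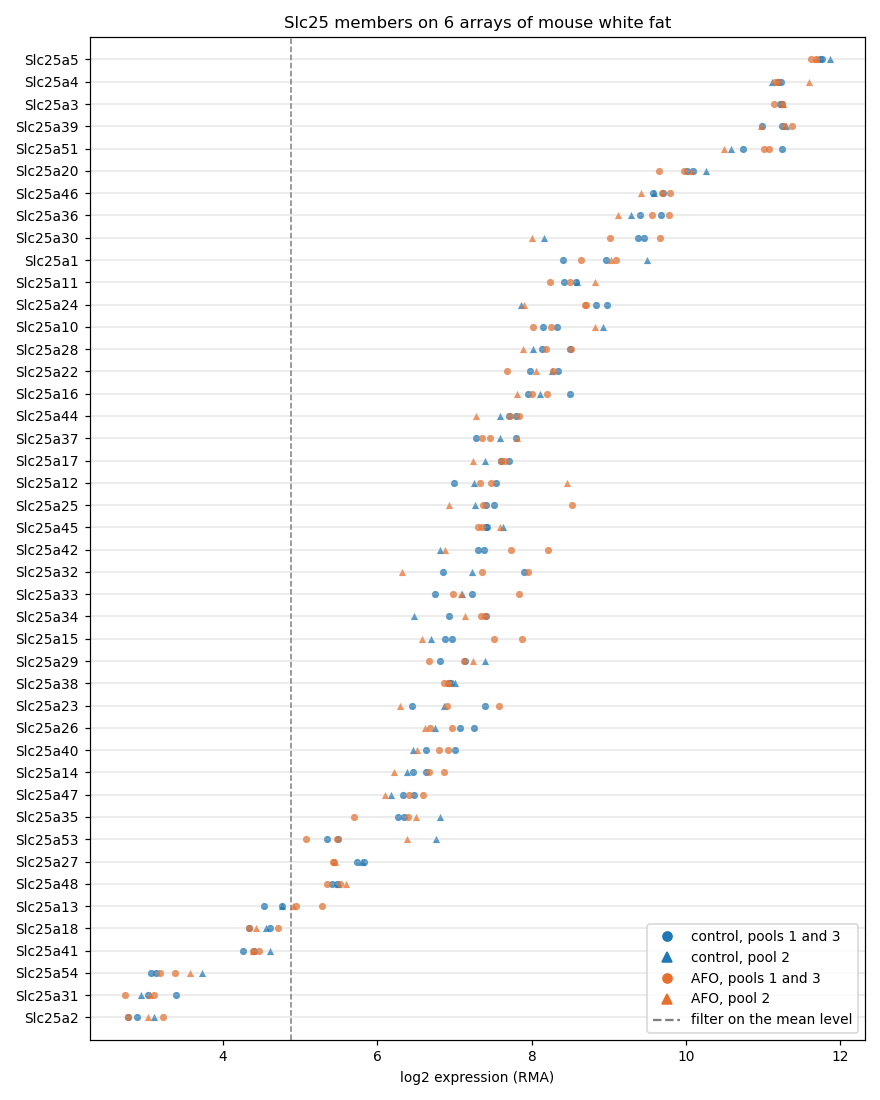
Each row is 1 of the 44 Slc25 genes and each point its log2 expression (RMA) on 1 array, with control arrays in blue, AFO arrays in orange and pool 2 arrays as triangles. The genes are ordered by mean, from Slc25a5 at 11.72 to Slc25a2 at 2.97, and 6 means lie left of the dashed filter at 4.88.

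The genotype comparison addresses whether carrier transcripts differ once Cre is present beside the floxed Fto alleles. No carrier passed: with limma, unpaired and adjusted over all 13453 genes, 0 of 38 tested members were called at an adjusted p under 0.05 (background 0%), and the smallest adjusted p was 0.999999. Slc25a27 alone had an unadjusted p under 0.05, which is 1 of 38 where 1.03% of all genes did. Of the 38 differences 16 were above 0 and 22 below, with a median of -0.021 beside -0.014 over all genes tested. The size of a difference had a median of 0.10 among carriers and 0.091 among all genes, and none exceeded 0.49, that of Slc25a12. With pool number as a block 0 members passed (background 0.0149%), and 2, Slc25a27 and Slc25a42, had an unadjusted p under 0.05 (background 4.32%). Without both pool 2 arrays 0 members passed (background 0.676%) and 2, Slc25a42 and Slc25a15, had an unadjusted p under 0.05 (background 4.98%).

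Within pools the carriers as a group did not keep 1 direction. A difference within a pool matches control and AFO arrays by number only, since the labels state no pairing. In pool 1 25 of 38 were higher in AFO fat, with a median difference of 0.10 beside 0.025 over all genes. In pool 2 10 were higher, with a median of -0.14 beside -0.023, and in pool 3 15, with -0.062 beside -0.038. The fat cell marker list (8 of 10 measured) had a summed signal, as log2, of 15.53, 15.46 and 15.48 in control pools 1, 2 and 3. In AFO pools 1, 2 and 3 it was 15.57, 15.16 and 15.32. The sum was thus lower in AFO than in control fat in pools 2 and 3 and slightly higher in pool 1. Within pool 1 its genes were divided, with Cidec, Lipe, Pnpla2 and Pparg higher in AFO fat and Adipoq, Lep, Fabp4 and Retn lower. The part of this list in the carrier medians was not tested. The AFO difference had the same sign in all 3 pools for 9 carriers on the lower side (background 12.8%) and 1 on the higher side, Slc25a42 (background 10.5%).

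**Figure D2:**
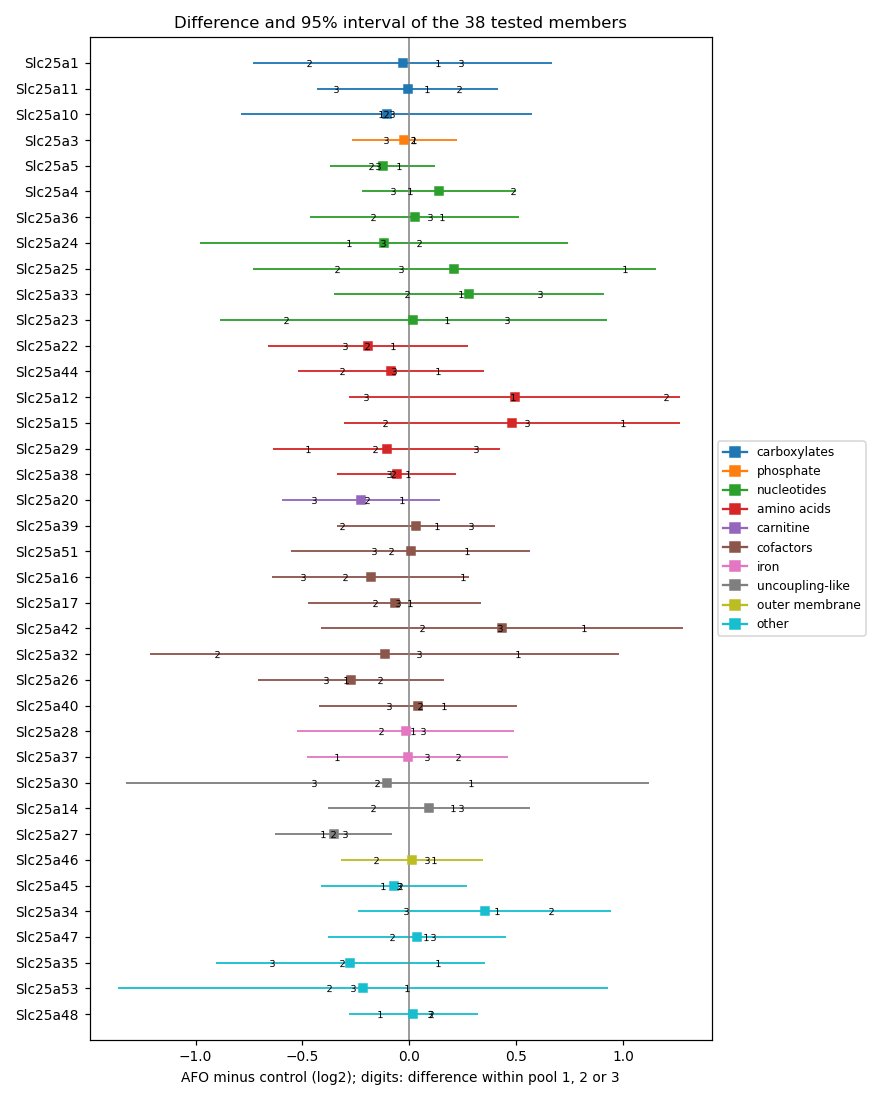
Squares give the AFO minus control difference (log2) of the 38 tested Slc25 genes with its 95% interval from the unpaired limma fit, coloured by substrate group, and digits mark the difference within pools 1, 2 and 3. Only the interval of Slc25a27 (-0.63 to -0.082) leaves out 0, and the digits of Slc25a12 and Slc25a25 lie far apart.

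ADP and ATP are exchanged across the inner membrane by the adenine nucleotide translocases, and the phosphate carrier Slc25a3 brings in phosphate for ATP synthesis. Slc25a5 (Entrez gene 11740), the translocase of many tissues, read 11.73, 11.86 and 11.76 in control pools 1, 2 and 3 and 11.68, 11.68 and 11.61 in AFO pools 1, 2 and 3. All 3 AFO arrays lay just below all 3 control arrays. The means were 11.78 ± 0.071 and 11.66 ± 0.040 (SD, n = 3), and the difference of -0.12 (SE 0.10) did not pass (limma adjusted p = 0.999999). It was 1 of 2 tested members whose genotypes did not overlap, both lower in AFO fat (background 1.47% lower, 3.50% in either direction), while 0 tested members were higher without overlap (background 2.03%). Slc25a5 had 8 probe sets, with differences from -0.34 to 0.010, of which 7 were below 0 and 2 were free of overlap. Processed copies of this gene are known in mammalian genomes, and several of its probe sets end in _x_at, a mark of probes that can bind other transcripts, so its reading is uncertain.

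Slc25a4 (Entrez gene 11739), the translocase of heart and skeletal muscle, behaved differently from array to array. It read 11.19, 11.11 and 11.23 in control and 11.19, 11.60 and 11.16 in AFO pools 1, 2 and 3. AFO pool 2 alone stood high, and the other 5 arrays lay between 11.11 and 11.23. Another probe set of the gene showed the same, at 11.41 in AFO pool 2 against 10.53 to 10.86 elsewhere. The muscle gene Ckm, creatine kinase, read 5.45, 9.38 and 5.12 in control and 9.56, 11.96 and 5.71 in AFO pools 1, 2 and 3. It was thus also high in control pool 2, where Slc25a4 was lowest. Brown fat markers (8 of 8 measured, Dio2 below the filter) summed to 8.69, 11.34 and 8.30 in control pools 1, 2 and 3 and 9.63, 12.09 and 8.79 in AFO pools 1, 2 and 3. Of these 8 genes 4 were highest in AFO pool 2 (Ucp1, Cidea, Cox8b and Cox7a1), while Prdm16 was lowest there and Elovl3, Dio2 and Ppargc1a lay below control pool 2. The part of muscle and brown fat signal in the Slc25a4 value was not tested. The genotype difference of Slc25a4 was 0.14 (SE 0.15), and it was -0.035 without both pool 2 arrays.

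The phosphate carrier had the smallest range among the 10 members of highest mean. Slc25a3 (Entrez gene 18674) read 11.22, 11.24 and 11.25 in control and 11.25, 11.26 and 11.14 in AFO fat. Its range over the 6 arrays was 0.12, where the median range was 0.65 among tested carriers and 0.57 among all genes. The interval of its difference ran from -0.27 to 0.22.

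The stretches before the starts of the translocase genes are shown because these genes carry out the same exchange but read differently across the arrays. Each is the 250 bases upstream of the annotated start in RefSeq (build GRCm38.p6), on the gene's own strand, with capitals marking the motifs found by letter search on both strands. The letters searched were those of the TATA box (TATAAA), the box named CCAAT, the GC box (GGGCGG), the site of ETS factors (CCGGAAGT), the site of estrogen-related receptors (TCAAGGTCA), the cyclic AMP response element (TGACGTCA), the E-box (CACGTG) and the consensus site of the regulator NRF1.
Slc25a5, chrX:36795347-36795596, plus strand: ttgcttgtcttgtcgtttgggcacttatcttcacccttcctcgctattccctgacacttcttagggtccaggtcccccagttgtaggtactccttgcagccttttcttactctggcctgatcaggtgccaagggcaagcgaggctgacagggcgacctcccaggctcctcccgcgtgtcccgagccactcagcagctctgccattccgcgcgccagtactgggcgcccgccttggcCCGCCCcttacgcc
Slc25a4, chr8:46211063-46211312, minus strand: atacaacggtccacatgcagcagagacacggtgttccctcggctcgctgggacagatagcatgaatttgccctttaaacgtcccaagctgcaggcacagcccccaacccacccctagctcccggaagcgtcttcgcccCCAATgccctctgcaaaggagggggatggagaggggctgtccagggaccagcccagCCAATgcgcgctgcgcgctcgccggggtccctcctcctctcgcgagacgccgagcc
The Slc25a5 stretch holds 1 GC box, read on the opposite strand, and the Slc25a4 stretch 2 CCAAT boxes. Promoter windows (300 bases, 250 before to 50 after the start) were at hand for 34 of the 44 members, 43 windows in all. A GC box was found in 86% of these, beside 58.7% of the 13841 windows of tested genes and 35.7% of all 32851. CCAAT was found in 48.8% beside 36.9% and 37.4%, CACGTG in 18.6% beside 9.44% and 7.15%, and TATAAA in 2.33% beside 8.12% and 13.6%. CCGGAAGT was in 2.33% of the member windows and 6.94% of those of tested genes, TGACGTCA in 4.65% and 2.73%, and the NRF1 and estrogen-related receptor letters in 0 member windows (1.77% and 0.282% of those of tested genes). Several starts of 1 gene can give overlapping windows, and a match describes letters only.

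The other 5 tested nucleotide carriers ranged more widely over the arrays than Slc25a5 and Slc25a4. Slc25a36, a pyrimidine nucleotide carrier, read 9.41, 9.29 and 9.68 in control and 9.56, 9.12 and 9.77 in AFO fat. Slc25a33, its relative, read 6.75, 7.10 and 7.23 and 6.99, 7.09 and 7.84, with AFO pool 3 highest. The calcium-regulated carriers of ATP-magnesium, which set the size of the matrix nucleotide pool, were Slc25a23, Slc25a24 and Slc25a25. Slc25a25 read 7.51, 7.27 and 7.41 in control and 8.52, 6.93 and 7.37 in AFO fat, so that 1 AFO array stood about 1 log2 unit above the controls (1.01 within pool 1) and another below them. Its difference was 0.21 (SE 0.39) and its interval ran from -0.73 to 1.15. Slc25a23 differed by 0.018 (SE 0.38) and Slc25a24 by -0.12 (SE 0.36). Of the 7 tested nucleotide carriers 5 differences were above 0 and 2 below, with a median of 0.025, and 0 passed.

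Carriers of di- and tricarboxylates feed fatty acid synthesis and the malate shuttles. Slc25a1 (Entrez gene 13358), the citrate carrier, read 8.96, 9.50 and 8.40 in control and 9.09, 9.03 and 8.64 in AFO fat. The control arrays alone spread over 1.10 log2 units, and the AFO arrays lay inside them. Slc25a10, the dicarboxylate carrier, read 8.14, 8.92 and 8.33 and 8.01, 8.82 and 8.25, higher in pool 2 of both genotypes. Slc25a11, which exchanges 2-oxoglutarate for malate, read 8.42, 8.59 and 8.58 and 8.50, 8.83 and 8.24. Their differences were -0.030 (SE 0.29), -0.11 (SE 0.28) and -0.0085 (SE 0.18), in that order, and 0 of the 3 passed. The widest of their intervals, that of Slc25a1, ran from -0.73 to 0.67, and that of Slc25a10 from -0.79 to 0.58. Acly, the enzyme that splits the exported citrate, differed by 0.032 (SE 0.13), and Me1, malic enzyme, by -0.21 (SE 0.27), with 9.43 in AFO pool 2 against 10.09 to 10.49 elsewhere.

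Amino acid carriers held the widest differences among the tested members. Slc25a12 (Entrez gene 78830), the aspartate and glutamate exchanger aralar of muscle and brain, read 6.99, 7.26 and 7.54 in control and 7.47, 8.46 and 7.33 in AFO pools 1, 2 and 3. AFO pool 2 stood alone, and the AFO value in pool 3 lay below its control. The means were 7.26 ± 0.27 and 7.75 ± 0.61 (SD, n = 3) and the difference was 0.49 (SE 0.32), with an interval from -0.28 to 1.27. Without both pool 2 arrays it was 0.14. A dimmer probe set of the gene read 5.25, 5.65 and 4.91 in control and 5.56, 5.76 and 5.46 in AFO pools 1, 2 and 3. With that probe set AFO fat was higher within each pool, AFO pool 2 did not stand alone, and the difference was 0.32. AFO pool 2 was also the array with the highest muscle signal, and the part of that signal in the Slc25a12 value was not tested.

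Slc25a13 (Entrez gene 50799), the paralog citrin, read 4.77, 4.77 and 4.53 in control and 5.28, 4.91 and 4.95 in AFO fat. All 3 AFO arrays lay above all 3 control arrays. Its mean of 4.87 fell just short of the filter, so it was not tested in the main fit. In the fit without a filter the difference was 0.36 (SE 0.15), which did not pass (limma adjusted p = 0.999979). Its upstream stretch is shown as that of the 1 member that was higher in AFO fat without overlap, with the E-box and the CCAAT box in capitals.
Slc25a13, chr6:6217174-6217423, minus strand: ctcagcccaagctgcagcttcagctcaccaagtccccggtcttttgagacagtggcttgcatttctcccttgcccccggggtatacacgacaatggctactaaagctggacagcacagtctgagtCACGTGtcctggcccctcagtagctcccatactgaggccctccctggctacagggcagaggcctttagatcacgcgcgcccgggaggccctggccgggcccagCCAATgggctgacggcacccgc
The window thus holds 1 CACGTG and, close to the start, 1 CCAAT.

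Both exchangers work in the malate-aspartate shuttle, which carries reducing equivalents into mitochondria together with Slc25a11, the transaminases Got1 and Got2 and the malate dehydrogenases Mdh1 and Mdh2. Got2, the mitochondrial transaminase, read 9.06, 8.97 and 8.81 in control and 9.33, 9.73 and 9.35 in AFO fat, without overlap. Its difference was 0.53 (SE 0.16), with an unadjusted p of 0.0141, and it did not pass (limma adjusted p = 0.999999). Got1, the cytosolic form, read 6.82, 7.21 and 7.03 and 7.72, 8.48 and 6.90, a difference of 0.68 (SE 0.39) with AFO pool 2 highest and pool 3 below its control. Mdh1 differed by -0.20 (SE 0.15) and Mdh2 by -0.12 (SE 0.17). The shuttle genes therefore did not share a direction, and of the 6 tested 0 passed.

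Slc25a15 (Entrez gene 18408), which exchanges ornithine for citrulline, read 6.87, 6.69 and 6.97 in control and 7.87, 6.58 and 7.52 in AFO pools 1, 2 and 3. AFO pools 1 and 3 lay above every control array and AFO pool 2 below them all. Over 6 arrays the difference was 0.48 (SE 0.33), which did not pass. Without both pool 2 arrays it was 0.77 (SE 0.18, limma adjusted p = 0.203), and with the block over the same 4 arrays Slc25a15 was the 1 carrier that passed (limma adjusted p = 0.0208, background 2.01%). That fit has 2 arrays a genotype. A weaker probe set of the gene spanned 5.07 to 5.30 in control fat, and its AFO values were 5.49, 5.10 and 5.22 for pools 1, 2 and 3. In that blocked fit 16 of the 79 tested marker genes passed too, 13 of them higher in AFO fat, among these 6 of muscle, 3 of brown fat and 3 of epithelium (Krt8, Krt18 and Cldn7). The order of the AFO pools in Slc25a15 (pool 1 above pool 3 above pool 2) was shared by 22 of the 91 measured marker genes. These were 5 of 7 epithelial markers (not Krt18 and Cldn4), 6 of 8 of fat cells and 5 of 6 of endothelium. The rest were 3 of 5 liver, 2 of 7 macrophage and 1 of 7 mesothelial markers. How many of all genes have this order was not computed, so the counts do not set these markers apart. Epididymis markers (6 of 9 measured, with Lcn5 and Spink8 below the filter) summed to 10.42, 7.52 and 7.32 in AFO pools 1, 2 and 3 and 7.32 to 7.60 in control fat. The part of these marker signals in the Slc25a15 values was not tested.

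The remaining amino acid carriers differed by less. Slc25a22, a glutamate carrier, read 8.35, 8.26 and 7.98 in control and 8.27, 8.06 and 7.68 in AFO fat, lower in AFO fat within each pool but overlapping. Slc25a44, which imports branched-chain amino acids, read 7.71, 7.59 and 7.80 and 7.84, 7.27 and 7.72, with AFO pool 2 lowest. Slc25a38, a glycine carrier needed for heme synthesis, had a range of 0.15 over the 6 arrays and a difference of -0.059 (SE 0.12). Slc25a29, a carrier of basic amino acids, differed by -0.11 (SE 0.22). Of the 6 tested amino acid carriers 2 differences were above 0 and 4 below, with a median of -0.072.

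**Figure D3:**
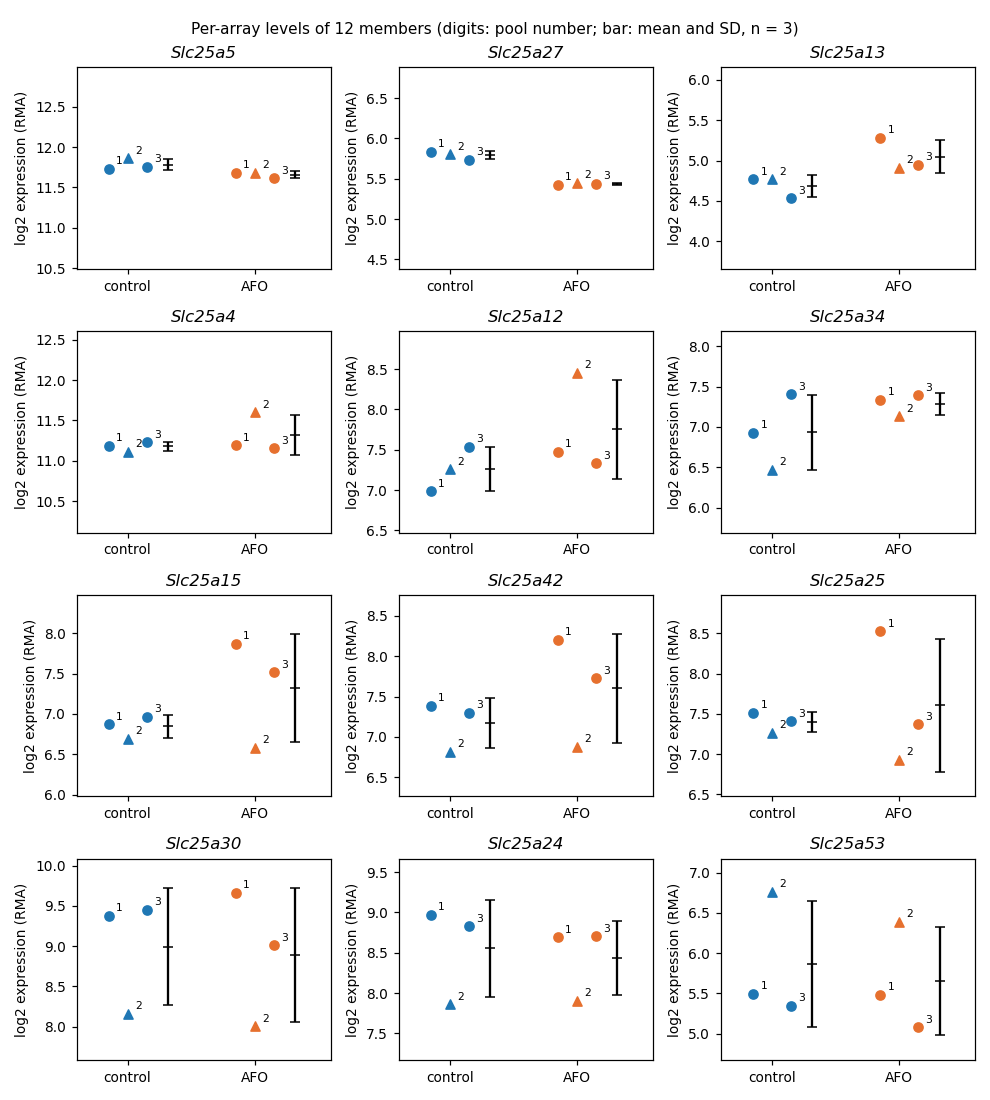
Each panel shows 1 Slc25 gene, with log2 expression (RMA) on the vertical axis (every panel spans the same height), control arrays in blue, AFO arrays in orange, pool numbers beside the points, and the mean with its SD (n = 3) as a bar. The genotypes separate narrowly in Slc25a5, Slc25a27 and Slc25a13, AFO pool 2 stands alone in Slc25a4 and Slc25a12, and pool 2 of both genotypes stands apart in Slc25a30, Slc25a24 and Slc25a53.

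Slc25a20 (Entrez gene 57279) exchanges carnitine for acylcarnitine and so admits fatty acids to oxidation. It read 10.01, 10.26 and 10.10 in control and 9.98, 10.07 and 9.65 in AFO pools 1, 2 and 3, lower in AFO fat within each pool, with AFO pool 3 lowest. The means of 10.12 ± 0.13 and 9.90 ± 0.22 (SD, n = 3) differed by -0.23 (SE 0.15), with an interval from -0.60 to 0.14. Another probe set of the gene read 8.89, 9.12 and 8.94 in control and 9.06, 8.98 and 8.78 in AFO pools 1, 2 and 3. It was higher in AFO fat in pool 1 and differed by -0.043. The neighbouring steps of the carnitine route differed by 0.067 (SE 0.15) for the outer membrane transferase Cpt1a, -0.19 (SE 0.24) for the inner transferase Cpt2 and -0.16 (SE 0.17) for carnitine acetyltransferase Crat. None of these 4 genes passed.

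Cofactor carriers included 2 of the brightest members. Slc25a39 (Entrez gene 68066), which imports glutathione, read 11.25, 11.29 and 10.99 in control and 11.37, 10.98 and 11.28 in AFO fat, and Slc25a51 (Entrez gene 230125), which imports NAD, read 10.74, 10.58 and 11.24 and 11.01, 10.50 and 11.07. Both overlapped between genotypes. The differences were 0.032 (SE 0.15) and 0.0059 (SE 0.23). Another probe set of Slc25a39, without the _x_at ending, differed by -0.17, so its sign depends on the probe set.

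Slc25a42 (Entrez gene 73095), a coenzyme A carrier, read 7.39, 6.82 and 7.30 in control and 8.21, 6.87 and 7.73 in AFO pools 1, 2 and 3. It was higher in AFO fat within each pool, by 0.82, 0.060 and 0.43, but low in pool 2 of both genotypes. The difference of 0.43 (SE 0.35) did not pass, nor did it with the block (limma adjusted p = 0.99). Its other probe set near the filter read 4.80 to 5.15 in control and 4.72 to 5.04 in AFO fat. Slc25a26, which imports S-adenosylmethionine, the methyl donor of mitochondrial RNA and protein methylation, read 7.26, 6.75 and 7.07 and 6.96, 6.62 and 6.68. It was lower in AFO fat within each pool, and its difference was -0.27 (SE 0.18). A dimmer probe set of Slc25a26 read 5.18, 5.13 and 5.16 in control and 5.31, 5.20 and 4.95 in AFO pools 1, 2 and 3. That probe set was higher in AFO fat in pools 1 and 2 and differed by -0.0051. Slc25a32, a carrier of folate or FAD, read 6.85, 7.22 and 7.90 in control and 7.36, 6.33 and 7.95 in AFO fat, lowest in AFO pool 2, and differed by -0.11 (SE 0.46). Slc25a16, linked to coenzyme A, differed by -0.18 (SE 0.19), the peroxisomal carrier Slc25a17 by -0.068 (SE 0.17) and Slc25a40, the paralog of Slc25a39, by 0.039 (SE 0.19). Of 8 cofactor carriers tested 4 differences were above 0 and 4 below, and 0 passed.

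Iron enters mitochondria through the mitoferrins. Slc25a28, the widely expressed form, read 8.49, 8.02 and 8.13 in control and 8.51, 7.88 and 8.19 in AFO fat, and Slc25a37, the form of red cell precursors, read 7.80, 7.59 and 7.27 and 7.46, 7.82 and 7.36. Their differences of -0.018 (SE 0.21) and -0.0080 (SE 0.20) were far inside the spread of the arrays. Of 6 erythroid markers 3 were measured, and Hba-a1 and Slc4a1 among them lay below the filter. Above it lay Alas2, which read 7.69, 6.78 and 6.45 in control and 6.25, 6.46 and 5.95 in AFO fat. Its difference of -0.75 (SE 0.33) did not pass (limma adjusted p = 0.999999). In the blocked fit without both pool 2 arrays Alas2 passed, lower in AFO fat (-0.97, limma adjusted p = 0.0119, background 2.01%). The part of erythroid signal in the Slc25a37 values was not tested.

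Slc25a27 (Entrez gene 74011), an uncoupling-protein relative best known from brain, had the smallest unadjusted p of the tested Slc25 genes. It read 5.83, 5.80 and 5.74 in control and 5.43, 5.45 and 5.44 in AFO pools 1, 2 and 3. All AFO arrays lay below all control arrays, and within pools the differences were -0.41, -0.36 and -0.30. The means were 5.79 ± 0.049 and 5.44 ± 0.010 (SD, n = 3), and the difference of -0.35 (SE 0.11) had an unadjusted p of 0.0183 and a limma adjusted p of 0.999999. It lay near the middle of all probe sets by level, at percentile 54.0. The other 3 probe sets of the gene were dimmer, overlapped between genotypes and differed by -0.11, -0.030 and -0.14. Slc25a14, another relative from brain, differed by 0.091 (SE 0.20), and Slc25a30, the kidney-type relative, by -0.10 (SE 0.51).

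Members without an agreed substrate were also free of calls. Slc25a34 read 6.93, 6.47 and 7.40 in control and 7.34, 7.13 and 7.39 in AFO fat, and differed by 0.35 (SE 0.25). Slc25a35 differed by -0.28 (SE 0.26), Slc25a45 by -0.071 (SE 0.14), Slc25a47, best known from liver, by 0.035 (SE 0.17), Slc25a48 by 0.020 (SE 0.13) and Slc25a53 by -0.22 (SE 0.48). Slc25a46, which lies in the outer membrane, read 9.57, 9.58 and 9.70 in control and 9.69, 9.42 and 9.79 in AFO fat and differed by 0.012 (SE 0.14). Below the filter beside Slc25a13 lay Slc25a18 (4.34 to 4.71), Slc25a41 (4.27 to 4.61), Slc25a54 (3.07 to 3.73), the germ cell translocase Slc25a31 (2.73 to 3.39) and Slc25a2 (2.77 to 3.22). The genotypes overlapped in each of these 5.

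The widest ranges among the Slc25 genes lay between pools. Of 38 tested carriers 12 ranged over more than 1 log2 unit across the 6 arrays (background 18.5%). In 13 carriers both pool 2 arrays lay below the other 4 (34.2%, beside 31.0% of all genes) and in 6 they lay above (15.8%, beside 18.1%). Slc25a30 read 9.37, 8.16 and 9.46 in control and 9.66, 8.01 and 9.01 in AFO pools 1, 2 and 3. Slc25a24 read 7.86 and 7.91 in control and AFO pool 2 against 8.69 to 8.97. On the other side, Slc25a53 read 5.50, 6.76 and 5.34 in control and 5.48, 6.39 and 5.08 in AFO fat, and Slc25a10 8.92 and 8.82 against 8.01 to 8.33. AFO pool 2 was the lowest array for 16 of 38 carriers and the highest for 6. The same counts over all genes were not computed, so these do not set the carriers apart.

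Several carriers were low in pool 2 in AFO fat more than in control fat. Slc25a32 was -1.33 from its pools 1 and 3 in AFO and -0.15 in control fat, Slc25a25 -1.02 and -0.19, and Slc25a23 -0.95 and -0.053. Pool 2 of both genotypes also held more B cell signal, with a summed B cell marker level, as log2, of 10.99 and 11.64 (5 of 6 markers measured) against 7.57 to 8.22 in the other 4, and less mesothelial signal, at 8.67 and 7.78 (7 of 7) against 10.94 to 11.18. Their part in the carrier values was not tested. No label makes pool 2 a group, so these positions are given without a test.

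**Figure D4:**
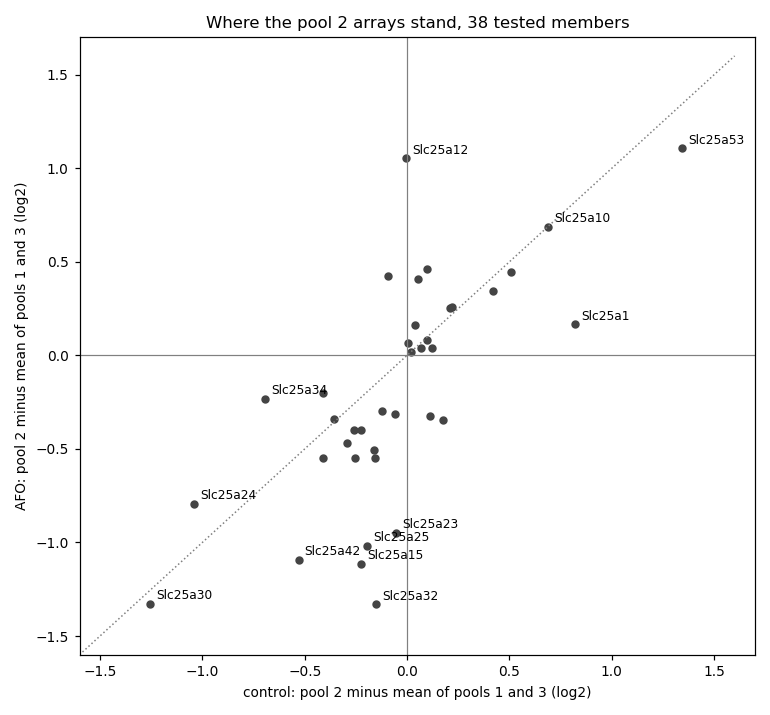
Each point is 1 of the 38 tested Slc25 genes, placed by how far (log2) its pool 2 array lay from the mean of pools 1 and 3 in control fat (horizontal) and in AFO fat (vertical), with the dotted line marking equal values. Slc25a30 (-1.26 and -1.33) and Slc25a53 (1.34 and 1.11) lie near the line, while Slc25a12 (-0.0058 and 1.05) moved in AFO fat alone.

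Genes that work beside the carriers were read in the same way. Among transporters of the same compartment under other symbols (uncoupling proteins, Mtch1 and Mtch2, the pyruvate carrier and the outer membrane channels), 6 of 8 tested genes were higher and 2 lower in AFO fat, 0 passed, and the median was 0.094. Ucp3, the muscle uncoupling protein, read 7.71, 7.33 and 6.97 in control and 7.95, 7.78 and 7.23 in AFO fat, and Vdac1, an outer membrane channel, differed by 0.19 (SE 0.16). Ucp2 and Mpc2 were not analysed here. Among the receptors and chaperones that bring carriers to the inner membrane, 7 of 13 tested genes were higher and 6 lower in AFO fat, 0 passed, and the median was 0.050. Timm10, a chaperone of the space between the membranes, read 8.46, 8.84 and 8.85 and 8.80, 9.08 and 9.21, higher in AFO fat within each pool, with a difference of 0.31 (SE 0.17). Timm8b, of the same chaperone family, differed by 0.25 (SE 0.21), and Timm22, the inner membrane pore, by -0.15 (SE 0.14). Among enzymes that use what carriers move, 6 of 16 tested genes were higher and 10 lower in AFO fat, 0 passed, and the median was -0.071. After Got2, the smallest p there was that of Fech, which places iron into heme, at -0.27 (SE 0.15). Among regulators of mitochondrial content, 3 of 7 tested genes were higher and 4 lower in AFO fat, 0 passed, and the median was -0.030, with Gabpa at -0.10 (SE 0.14) and Pprc1 at 0.089 (SE 0.13). With the block 0 genes of these lists passed either.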

How the data were processed

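The deposited values are log2 expression levels of 45101 probe sets on 6 arrays, which the authors made with RMA (background correction, quantile normalisation and probe set summary) in Affymetrix Expression Console 1.4, per the submitters' processing notes. Quantile normalisation hides a change shared by most genes, and RMA draws low signals together. Of the probe sets 64 were controls, 34945 named 1 gene, 932 several, and 9160 had no entry in the annotation used. From those with 1 symbol, probe sets averaging no less than the 40th percentile (4.88) entered the fit, 1 a gene by the highest mean, giving 13453 genes. A probe set that lists Slc25a37 with another gene was left out.

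The genotypes were compared in R 4.3.3 with limma 3.58.1 (empirical Bayes with trend, unpaired, Benjamini-Hochberg over all 13453 genes, threshold 0.05). The fit was also run on simulated data with independent noise between arrays and planted differences larger than any carrier's. Those data held no pool structure, so the run does not bear on the carrier differences. The labels call the pools independent, without the number of mice in each, so p-values measure the spread between pools. Arrays of equal pool number deviated together (correlations across genes of 0.594, 0.799 and 0.589), which met the rule for pairing (each above 0.1). Control pool 1 also deviated together with AFO pool 3 (0.441), and control pool 3 with AFO pool 1 (0.362). Pool 2 dominates these values, and what a pool number shares is not in the labels. The members, lists and tests were chosen with earlier results of these data known. Values of every array are given for the 10 brightest carriers, those without overlap, the 6 with the smallest p and the 6 with the widest range, and up to 4 a substrate group. Summed marker signals are log2 of the sum of linear values. Alternatives covered the filter, the probe set, the normalisation, the variance model, array weights, the block and omitted arrays. Enzymes next to a carrier's step (Acly, Me1, Mdh1, Mdh2, Cpt1a, Cpt2, Crat), Vdac1 and Timm22, and the markers named singly, were added after their values were seen. Promoters came from RefSeq (GRCm38.p6). Protein sequences were not used here.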

Additional observations from a re-analysis of the deposited data

How the results depend on the processing

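Across 17 alternatives no carrier was called, except Slc25a15 (0.77, 1 of 38, higher) once pool 2 was dropped and the replicate block added. Over all genes the count of calls was 0 in the main setting, 2 with the replicate block, 91 over the 4 arrays of pools 1 and 3, and 270 there once the block was added. Leaving out single arrays gave 0 to 27 genes, the 27 coming without AFO pool 2. The carrier median of -0.021 ran from -0.058 (without AFO pool 1) to 0.074 (without AFO pool 2) when 1 array was left out. Non-overlapping carriers numbered 2, and 1 with the filter at the 60th percentile (5.97), which drops Slc25a27, 2 to 8 when 1 array was left out, the 8 coming without AFO pool 2, and 11 over the 4 arrays of pools 1 and 3, block or no block, where fewer arrays make overlap less likely. The share of all genes without overlap was 3.50% over 6 arrays, 3.15% with that filter, 6.85 to 17.8% with 1 array left out (17.8% without AFO pool 2) and 29.4% over those 4 arrays. Of the 38 carriers 12 kept the sign of their difference in every alternative that tested them (5 higher, 7 lower in AFO fat), Slc25a5, Slc25a12, Slc25a15, Slc25a20, Slc25a22, Slc25a26, Slc25a27, Slc25a33, Slc25a34, Slc25a35, Slc25a38 and Slc25a42. The others changed sign at least once, without a call on either side, and the cause was not tested. Differences of changed sign were Slc25a36 -0.076, Slc25a39 -0.049 and Slc25a46 -0.038 with probe sets averaged per gene, Slc25a39 -0.17 with probe sets lacking _x_at or _s_at endings, Slc25a37 0.000020 with median centring, Slc25a11 0.0090, Slc25a23 -0.0023, Slc25a3 0.013 and Slc25a37 0.0031 with repeated quantile normalisation, Slc25a11 0.0049, Slc25a16 0.083, Slc25a23 -0.13, Slc25a32 0.50, Slc25a44 0.022 and Slc25a48 -0.041 with array weights, and Slc25a1 0.19, Slc25a28 0.040, Slc25a32 0.28, Slc25a4 -0.035, Slc25a44 0.031 and Slc25a48 -0.021 without both pool 2 arrays, the same with the block added. When 1 array was left out the differences that changed sign ran over Slc25a1 -0.31 to 0.24, Slc25a10 -0.34 to 0.12, Slc25a11 -0.16 to 0.13, Slc25a14 -0.051 to 0.27, Slc25a17 -0.16 to 0.064, Slc25a23 -0.31 to 0.33, Slc25a24 -0.47 to 0.15, Slc25a25 -0.25 to 0.55, Slc25a28 -0.18 to 0.14, Slc25a29 -0.26 to 0.064, Slc25a3 -0.044 to 0.014, Slc25a30 -0.52 to 0.34, Slc25a32 -0.48 to 0.33, Slc25a36 -0.12 to 0.21, Slc25a37 -0.15 to 0.11, Slc25a39 -0.061 to 0.15, Slc25a4 -0.0033 to 0.22, Slc25a40 -0.080 to 0.19, Slc25a44 -0.20 to 0.084, Slc25a45 -0.16 to 0.0023, Slc25a46 -0.065 to 0.12, Slc25a47 -0.078 to 0.17, Slc25a48 -0.034 to 0.088, Slc25a51 -0.13 to 0.20 and Slc25a53 -0.59 to 0.23. The 3 arrays a genotype limit every comparison, and dim members such as Slc25a2 and Slc25a31 lie where RMA draws signals together.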

Other observations

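Probe sets of the same carrier did not always move together. Slc25a53 stood high in pool 2 of both genotypes with the probe set used (6.76 and 6.39), but low with its other probe set, at 4.91 and 5.17 in pool 2 where the remaining 4 arrays spanned 5.33 to 5.79. Of 20 carriers with 2 or more probe sets above the filter, 11 had genotype differences of 1 sign over all of them. With all 23142 kept probe sets tested singly (chosen after seeing the data) 0 of the 77 carrier probe sets passed (smallest limma adjusted p = 0.999971). Among them 4 had genotypes without overlap, all lower in AFO fat, namely 2 of Slc25a5, 1 of Slc25a27 and 1 of Slc25a29 (-0.17). Over all kept probe sets 1.65% were lower without overlap, and 3.33% differed without overlap in either direction.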
